A study of Mus musculus with 8 samples.

Results

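The BCL2 family apoptosis regulators described here are 10 mouse genes: Pmaip1, Bbc3, Bad, Bid, Bcl2l11, Bax, Bak1, Bcl2, Bcl2l1 and Mcl1. They were found by name on the arrays, every probe of a listed gene was taken, and the 10 are among 19032 genes with a usable probe. They had 19 probes, and 18 of them rose well above background in at least 1 group, on its 2 arrays. Of these, 7 promote cell death and 3 oppose it. RNA bound by DAZL, a translational regulator that binds mRNA in germ cells, was recovered from cell lysates by immunoprecipitation (IP) without crosslinking and measured on 8 one-colour Agilent mouse arrays. The cells of all 4 groups were primordial germ cells made in culture, over 12 days of differentiation, from V6.5 embryonic stem cells of mixed C57BL/6 129SV strain that carry the Dazl-GFP-V5 fusion. There were 4 groups of 2 arrays: input RNA (no antibody used), mock IP (normal mouse IgG), V5 IP (anti-V5) and GFP IP (anti-GFP). Both tag antibodies bind the same fusion protein. There is no group of cells without the fusion, and what drives it, and whether it is 1 clone, are not given in the sources used here. The labels do not say that the 2 replicates of a group were separate cultures, so every p-value rests on array-to-array spread that may be technical only.

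BCL2 family proteins control the permeability of the outer mitochondrial membrane, the step that commits most cells to apoptosis. BAX and BAK1 are the effectors that form pores. BCL2, BCL2L1 (BCL-XL) and MCL1 hold them in check, and the BH3-only proteins, among them NOXA (Pmaip1), PUMA (Bbc3), BAD, BID and BIM (Bcl2l11), either block these guardians or activate the effectors directly. NOXA binds MCL1 preferentially. Primordial germ cells are prone to apoptosis when they are misplaced or deprived of survival factors, and loss of DAZL in mice leads to loss of germ cells.

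Values below are log2 processed intensities relative to each array's 75th percentile over gene probes, and a gene stands by its brightest usable probe. A difference is called at an adjusted p under 0.05 in 1 limma fit over all 8 arrays and all usable probes. An array gives the share of a transcript within its RNA sample, not the amount recovered. The share of probes well above background lay between 61.3% (mock IP replicate 1) and 70.5% of probes. The 75th percentile of intensity was 352 on mock IP replicate 1 and between 641 and 1130 on the other arrays, and that array also stood apart on the second principal component, with 26.0% of the variance. All 11 germ cell markers but 1 were on the arrays, and these 10 were well above background in both input arrays. All 7 pluripotency markers were too, as were all 8 fibroblast or feeder markers, all 4 cardiac markers, 4 of 5 neural markers (not Neurod1), 5 of 6 endoderm markers (not Ttr) and 3 of 4 blood and endothelium markers (not Ptprc). Dazl mRNA was 6.19-fold higher with anti-V5 than in mock IP (limma, adjusted p = 0.00549) and 6.56-fold higher with anti-GFP (adjusted p = 0.00435). Over input it was 2.46-fold higher with anti-V5 (adjusted p = 0.0452) and 2.61-fold higher with anti-GFP (adjusted p = 0.0329). In mock IP, where Dazl read 1.06 and 2.05, it differed from input by log2 -1.33 (adjusted p = 0.068). In bulk RNA such as the input, fewer cells of a type and less RNA per cell cannot be told apart.

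Pmaip1 and Mcl1 were the members whose share was called higher than in mock IP, with both antibodies. No other member was called higher with either antibody. The products of Pmaip1 and Mcl1, a death promoter and a guardian, bind each other, which these RNA values do not test. Mcl1 was called by 1 of its 2 probes. The counts of higher calls are close to the shares of all genes, given next. In V5 IP against mock IP, 2 of 10 members were called higher, where 14.1% of all genes were, and 1 of 10 was called lower, where 19.4% of all genes were. In GFP IP against mock IP, 2 of 10 were called higher, against 15.9% of all genes, and 4 of 10 lower, against 25.2%. The median of all genes was -0.44 in both comparisons, so that a value near it is typical of the array. The members' median was -0.47 with anti-V5 and -0.29 with anti-GFP.

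**Figure D1:**
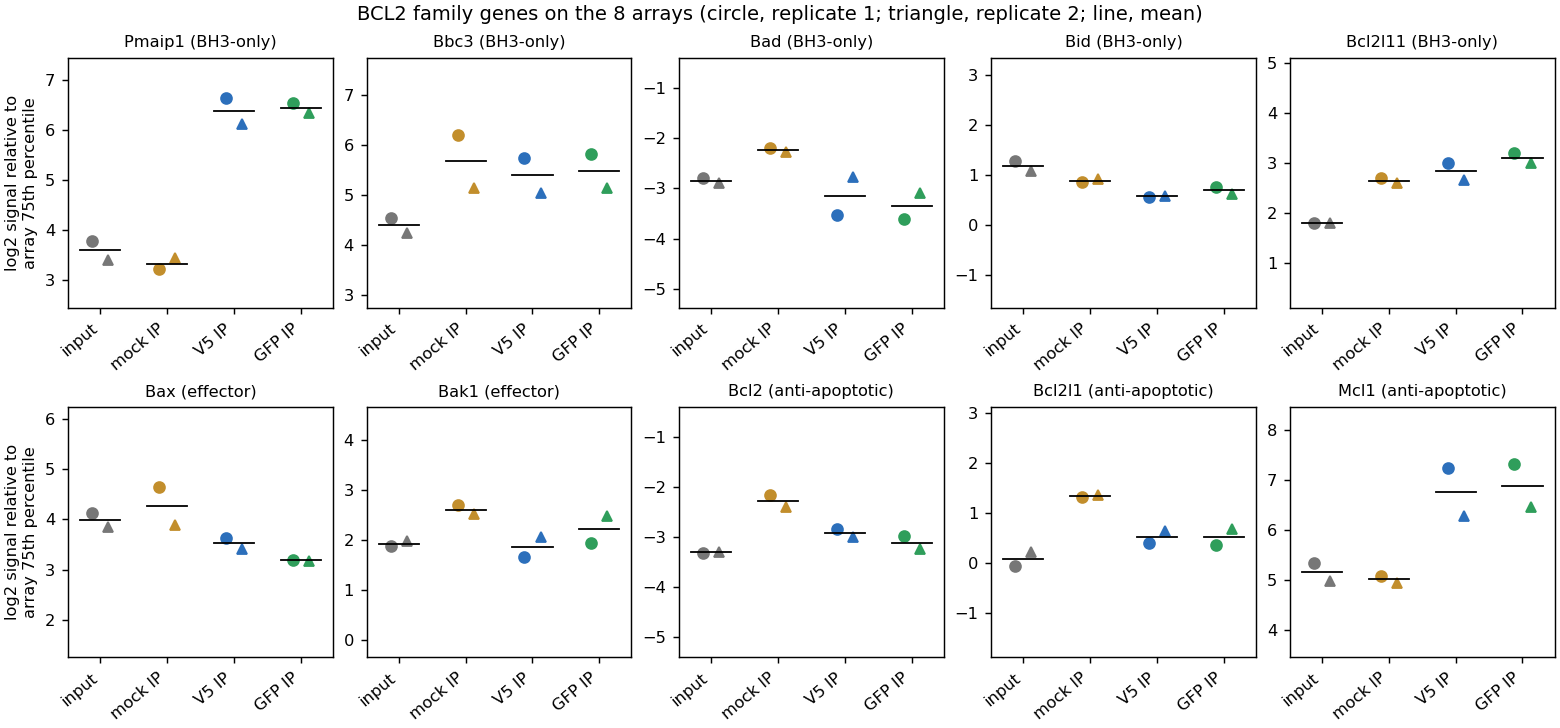
Log2 signal relative to the array's 75th percentile for the brightest probe of each of the 10 genes (vertical axes, each spanning the same log2 range but centred on its gene) in the 4 groups; circles are replicate 1, triangles replicate 2 and lines group means. All 4 V5 and GFP IP values of Pmaip1 and of Mcl1 lie above their 4 input and mock IP values, while Bcl2l1, Bcl2 and Bad are highest in mock IP.

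Pmaip1 encodes NOXA, a BH3-only protein and a target of p53. Its log2 signal (probe A_51_P477121, the only probe of the gene) was 3.78 and 3.39 in input and 3.22 and 3.43 in mock IP. It was 6.63 and 6.10 with anti-V5 and 6.54 and 6.34 with anti-GFP. The 4 IP values with tag antibodies were all higher than the 4 input and mock values, which overlapped each other. Pmaip1 rose 8.24-fold with anti-V5 over mock IP (log2 3.04 ± 0.28 SE, limma adjusted p = 0.00253) and 8.67-fold with anti-GFP (log2 3.12 ± 0.28, adjusted p = 0.00223). Ordered by log2 fold change it was number 88 of 19032 genes with anti-V5 and number 77 with anti-GFP. Over input it rose 6.87-fold with anti-V5 (adjusted p = 0.0027) and 7.22-fold with anti-GFP (adjusted p = 0.00233), while mock IP and input differed by -0.26 ± 0.28 (adjusted p = 0.533). The comparisons with mock IP share the mock arrays and those with input share the input arrays, so the values of the 2 antibodies are not independent of each other. Within slide 1 the log2 difference from mock IP was 3.41 with anti-V5 and 3.32 with anti-GFP, and within slide 2 it was 2.68 and 2.91. With each of the 8 arrays left out in turn, the adjusted p of Pmaip1 over mock IP ran from 0.00441 to 0.019 with anti-V5 and from 0.00256 to 0.0175 with anti-GFP.

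Mcl1 encodes the short-lived anti-apoptotic protein that NOXA binds. The log2 signal of its brighter probe (A_51_P238786) was 5.34 and 4.98 in input and 5.09 and 4.94 in mock IP. It was 7.24 and 6.28 with anti-V5 and 7.31 and 6.46 with anti-GFP. Both tag antibodies gave values above all input and mock values, and with each antibody the slide 1 array was the higher. Mcl1 rose 3.35-fold with anti-V5 over mock IP (log2 1.74 ± 0.41, limma adjusted p = 0.0235) and 3.66-fold with anti-GFP (log2 1.87 ± 0.41, adjusted p = 0.0147). Over input the rise was 3.02-fold (adjusted p = 0.0273) and 3.30-fold (adjusted p = 0.0182), and mock IP differed from input by -0.15 ± 0.41 (adjusted p = 0.82). A dimmer probe (A_52_P93933) ran the same way but was not called. It read 3.65 and 3.55 in mock IP, 4.51 and 3.77 with anti-V5 and 4.62 and 3.92 with anti-GFP, a log2 difference of 0.54 ± 0.34 (adjusted p = 0.246) and 0.67 ± 0.34 (adjusted p = 0.154).

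The call of Mcl1 with anti-V5 over mock IP was lost when any of 5 arrays was left out, with an adjusted p of 0.113 without V5 IP replicate 1, 0.0955 without mock IP replicate 1, 0.0606 without mock IP replicate 2 and 0.0526 without either input array. In GFP IP over mock IP it was lost without GFP IP replicate 1 (log2 1.44, adjusted p = 0.0847) and without mock IP replicate 1 (log2 1.95, adjusted p = 0.0665). Over input it was lost with anti-V5 without input replicate 1 (adjusted p = 0.103), input replicate 2 (adjusted p = 0.152) or V5 IP replicate 1 (adjusted p = 0.146), and with anti-GFP without input replicate 1 (adjusted p = 0.0755), input replicate 2 (adjusted p = 0.112) or GFP IP replicate 1 (adjusted p = 0.107). With the mean of its 2 probes, Mcl1 with anti-V5 was not called over mock IP (log2 1.14, adjusted p = 0.0503) or over input (log2 1.13, adjusted p = 0.0638). The direction was the same with each array left out, between 1.26 and 2.22 with anti-V5 over mock IP and between 1.44 and 2.30 with anti-GFP.

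Among the other BH3-only genes, the brightest of 3 probes of Bcl2l11 was called higher with both tag antibodies than in input, and it was not called against mock IP. BIM, its product, binds every anti-apoptotic member and can activate BAX. Its brightest probe (A_52_P158527) read 1.81 and 1.80 in input, 2.70 and 2.59 in mock IP, 3.005 and 2.66 with anti-V5 and 3.20 and 2.99 with anti-GFP. Mock IP thus lay between input and the tag antibodies, and the V5 and mock values overlapped. Over input Bcl2l11 rose 2.04-fold with anti-V5 (limma adjusted p = 0.0191) and 2.45-fold with anti-GFP (adjusted p = 0.00767). Over mock IP the log2 difference was 0.18 ± 0.24 (adjusted p = 0.558) and 0.45 ± 0.24 (adjusted p = 0.162), and mock IP over input gave 0.84 ± 0.24 (adjusted p = 0.0611, or 0.0189 with the slide as a block). The calls over input were lost without input replicate 1 (adjusted p = 0.125 with anti-V5 and 0.0667 with anti-GFP), without input replicate 2 (0.121 and 0.0653), and without the first array of the IP itself (0.129 and 0.064). Another probe assigned to the same transcript (A_51_P484880) differed by no more than 0.11 from input, with adjusted p of 0.796 and 0.773. The third probe, from a cDNA clone (A_52_P348214), was lower than mock IP by -0.83 ± 0.26 with anti-V5 (adjusted p = 0.0456) and by -1.03 ± 0.26 with anti-GFP (adjusted p = 0.0206). Against input the third probe differed by -0.11 (adjusted p = 0.777) and -0.32 (adjusted p = 0.379). With the mean of its probes, Bcl2l11 over input was 0.34 with anti-V5 (adjusted p = 0.305) and 0.36 with anti-GFP (adjusted p = 0.261), neither called. The probes of Bcl2l11 therefore disagreed in sign against mock IP, and the mean over its probes was -0.30 with anti-V5 and -0.28 with anti-GFP.

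Bbc3 encodes PUMA and, like Pmaip1, is a target of p53. Its only probe read 4.54 and 4.24 in input, 6.20 and 5.14 in mock IP, 5.74 and 5.04 with anti-V5 and 5.82 and 5.15 with anti-GFP. All 6 values from any IP, mock included, exceeded input, and the IP and mock values overlapped. The log2 difference from mock IP was -0.28 ± 0.43 with anti-V5 (limma adjusted p = 0.636) and -0.19 ± 0.43 with anti-GFP (adjusted p = 0.748), and without mock IP replicate 1 it was 0.25 and 0.34. Over input it was 1.28 ± 0.43 in mock IP (adjusted p = 0.0916), 1.0005 ± 0.43 with anti-V5 (adjusted p = 0.127) and 1.09 ± 0.43 with anti-GFP (adjusted p = 0.0936). With the slide as a block these 3 passed, with adjusted p of 0.00959, 0.0119 and 0.00755.

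Bad, whose product is held inactive by 14-3-3 proteins when phosphorylated, was dimmer. It read -2.80 and -2.89 in input, -2.20 and -2.28 in mock IP, -3.54 and -2.78 with anti-V5 and -3.60 and -3.09 with anti-GFP. All values with tag antibodies were below mock IP. The log2 difference from mock IP was -0.92 ± 0.32 with anti-V5 (limma adjusted p = 0.061, or 0.0254 with the slide as a block) and -1.11 ± 0.32 with anti-GFP (adjusted p = 0.0315). Its second probe was lower than mock IP with both antibodies, by -1.09 ± 0.34 (adjusted p = 0.0442) and by -1.47 ± 0.34 (adjusted p = 0.0164). Against input neither probe of Bad was called in any IP.

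Bid, which links death receptors to mitochondria once its product is cleaved, had the smallest span of group means among the 10 genes. It read 1.28 and 1.08 in input, 0.86 and 0.91 in mock IP, 0.56 and 0.58 with anti-V5 and 0.77 and 0.62 with anti-GFP. The groups descended from input to V5 IP, but no difference of Bid passed the limma test. The log2 difference was -0.31 ± 0.22 for V5 IP against mock IP (adjusted p = 0.289) and -0.61 ± 0.22 for V5 IP against input (adjusted p = 0.0779, or 0.0392 with the slide as a block). Bid with anti-GFP differed by -0.19 ± 0.22 from mock IP (adjusted p = 0.509).

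Of the effectors, Bax was lower with anti-GFP than in mock IP and Bak1 did not pass the test. Bax, measured by 10 spots on each array, read 4.13 and 3.86 in input, 4.64 and 3.90 in mock IP, 3.64 and 3.42 with anti-V5 and 3.20 and 3.17 with anti-GFP. Its values with tag antibodies were below all input and mock values. The log2 difference from mock IP was -1.08 ± 0.30 with anti-GFP (limma adjusted p = 0.0277) and -0.74 ± 0.30 with anti-V5 (adjusted p = 0.0913, or 0.0314 with the slide as a block). Without mock IP replicate 1, the difference with anti-GFP was -0.71 (adjusted p = 0.0934). Against input Bax differed by -0.46 ± 0.30 with anti-V5 (adjusted p = 0.285) and by -0.80 ± 0.30 with anti-GFP (adjusted p = 0.0768, or 0.0244 with the slide as a block).

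Bak1, the effector that resides on mitochondria, read 1.88 and 1.98 in input, 2.70 and 2.53 in mock IP, 1.67 and 2.07 with anti-V5 and 1.95 and 2.48 with anti-GFP. Mock IP was the highest group, and the input and V5 values overlapped. Its log2 difference from mock IP was -0.74 ± 0.28 with anti-V5 (limma adjusted p = 0.0734, or 0.0325 with the slide as a block) and -0.40 ± 0.28 with anti-GFP (adjusted p = 0.278). Against input it was -0.06 ± 0.28 with anti-V5, a sign that turned to 0.06 in the authors' deposited table and to 0.14 without V5 IP replicate 1. The second probe of Bak1 was called in no comparison.

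The other 2 guardians, Bcl2l1 and Bcl2, did not follow Mcl1. Bcl2l1, also with 10 spots, read -0.07 and 0.21 in input, 1.32 and 1.35 in mock IP, 0.40 and 0.63 with anti-V5 and 0.36 and 0.68 with anti-GFP. Mock IP was highest, input lowest and the tag antibodies between, with no overlap of mock IP with any other group. Bcl2l1 fell below mock IP with anti-V5 (log2 -0.82 ± 0.24, limma adjusted p = 0.0405) and GFP IP (log2 -0.81 ± 0.24, adjusted p = 0.0351). In mock IP it was 2.40-fold higher than in input (log2 1.26 ± 0.24, adjusted p = 0.0308), and against input the difference was 0.44 ± 0.24 with anti-V5 (adjusted p = 0.214) and 0.45 ± 0.24 with anti-GFP (adjusted p = 0.195). Its other 2 probes were called the same way in the 3 comparisons, with differences from mock IP between -0.84 and -1.02. Set against the median of all genes, the fall of the brightest probe was -0.38 with anti-V5 and -0.37 with anti-GFP.

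Bcl2 was dim and its probes disagreed. The probe for transcript variant 2 read -3.31 and -3.30 in input, -2.17 and -2.40 in mock IP, -2.84 and -3.003 with anti-V5 and -2.98 and -3.24 with anti-GFP. Mock IP was again the highest group. The log2 difference of Bcl2 from mock IP was -0.64 ± 0.23 with anti-V5 (limma adjusted p = 0.0687, or 0.0292 with the slide as a block) and -0.83 ± 0.23 with anti-GFP (adjusted p = 0.0285), and mock IP exceeded input 2.02-fold (adjusted p = 0.0409). The probe for variant 1, with 10 spots, read -4.09 and -2.62 in mock IP, -3.95 and -2.65 with anti-V5 and -3.67 and -2.45 with anti-GFP, so the slides differed by more than these 3 groups did. Its differences had the opposite sign to those of the variant 2 probe in all 6 comparisons, and none was called. With the mean of its probes, Bcl2 was not called with anti-GFP against mock IP (log2 -0.265, adjusted p = 0.541). The mean of its probes was not called in mock IP against input either (log2 0.15, adjusted p = 0.774). A further probe of Bcl2, from a cDNA clone, was not well above background on any array.

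The calls of lower signal against mock IP were lost in many fits with an array left out. Such fits hold fewer arrays, and calls over all genes also changed in them. Without either input array the log2 difference of Bcl2l1 with anti-V5 stayed at -0.82, and only the estimate of its spread changed. The call of Bcl2l1 with anti-V5 was lost when any 1 of the 8 arrays was left out (adjusted p from 0.0629 to 0.176). In GFP IP each of the calls of Bad, Bax, Bcl2 and Bcl2l1 was lost without mock IP replicate 1, without GFP IP replicate 1 and without either input array. The highest adjusted p was 0.167 for Bad, 0.11 for Bax, 0.144 for Bcl2 and 0.197 for Bcl2l1. The call of Bcl2l1 in mock IP over input was lost without input replicate 1 (adjusted p = 0.225), input replicate 2 (0.188) or mock IP replicate 1 (0.104), and that of Bcl2 without any single one of the 8 arrays except mock IP replicate 2 (up to 0.236). None of these calls changed direction with an array left out. In the authors' deposited table the fall below mock IP was called for no member. For these 4 genes the log2 differences with anti-GFP there ran from -0.60 (Bcl2l1, adjusted p = 0.0802) to -0.87 (Bax, adjusted p = 0.0602). Over all genes the authors' deposited table gave 3009 higher and 1388 lower calls with anti-V5 against mock IP, where the values used here gave 2675 and 3701.

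**Figure D2:**
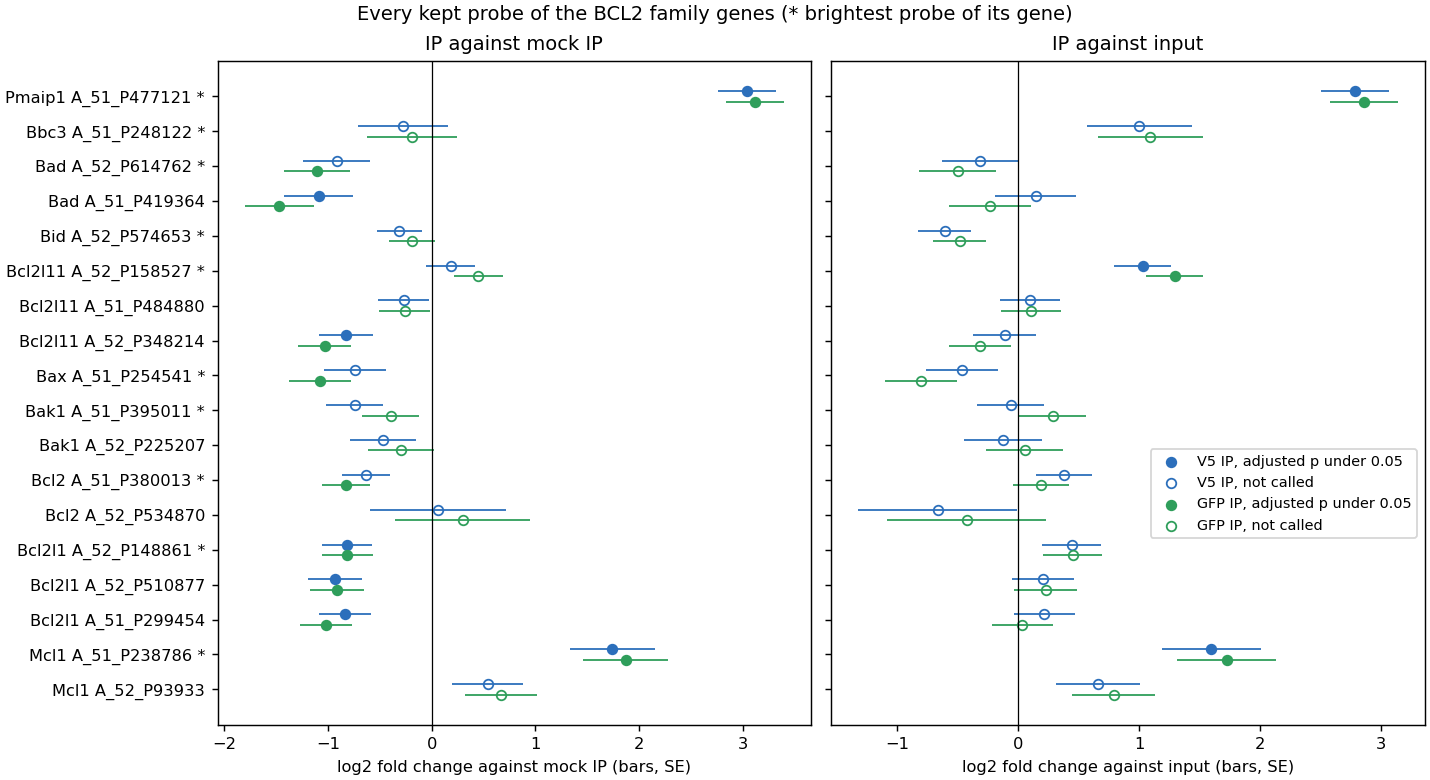
Log2 fold change (horizontal axis, bars are the SE of the limma fit) of the 18 usable probes of the 10 genes with anti-V5 (blue) and GFP IP (green), against mock IP on the left and against input on the right; filled circles are called at an adjusted p under 0.05, and an asterisk marks the brightest probe of a gene. Against mock IP, 2 probes were called higher with each antibody (Pmaip1 and 1 of Mcl1), and 5 with anti-V5 and 8 with anti-GFP were called lower. Of the lower ones, 3 were probes of Bcl2l1 with each antibody. Of all genes, by brightest probe, 14.1% and 15.9% were called higher and 19.4% and 25.2% lower. Against input, 3 were called higher and 0 lower with each, where 13.9% and 15.7% of all genes were higher and 13.2% and 16.3% lower.

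Against input, members were called higher with the tag antibodies and none was called lower. In V5 IP 3 of 10 members were called higher than input (Pmaip1, Mcl1 and Bcl2l11), against 13.9% of all genes, and 0 of 10 lower, against 13.2%. In GFP IP the same 3 were called higher, against 15.7% of all genes, and 0 lower, against 16.3%. At an unadjusted p under 0.05, limma placed 1 member below input in each. The members' median was 0.41 with anti-V5 and 0.37 with anti-GFP, where all genes had -0.11 in both. In mock IP against input, 2 of 10 members were called higher (Bcl2 and Bcl2l1), against 6.21% of all genes, and 0 lower, against 3.78%, with 0 members lower at an unadjusted p under 0.05. The members' median in that comparison was 0.64 and that of all genes 0.20. Bcl2l1 and the brightest probe of Bcl2 thus differed between the 2 controls themselves, while Pmaip1 and Mcl1 did not pass the test between them. The variant 1 probe of Bcl2 went the other way in mock IP against input (limma log2 -0.72, adjusted p = 0.459).

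With replicate number, which is the slide, as a block, the lower calls with anti-V5 against mock IP went from 1 to 5 of 10 members, adding Bad, Bax, Bak1 and Bcl2, while the share of all genes called lower went from 19.4% to 36.9%. The higher calls against input went from 3 to 4 with each antibody by adding Bbc3, where 19.9% of all genes were called higher with anti-V5 and 21.5% with anti-GFP. In each, 1 member was called lower, Bid with anti-V5 (23.6% of all genes) and Bax with anti-GFP (26.2%). In mock IP against input the higher calls went from 2 to 4, adding Bbc3 and Bcl2l11, and the share of all genes from 6.21% to 20.4%. The block thus raised the calls over all genes as well as those of the members.

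V5 IP and GFP IP were compared with each other for every member. Limma called 0 of 10 members, where 0% of all genes were called in either direction, and 0 members reached an unadjusted p under 0.05. Of all genes, 178 of 19032 did. This fit leaves out the slide, and deviations of same-numbered V5 and GFP arrays from their group means correlated by 0.779. The SE can therefore be too wide for this comparison, and a lack of calls does not show equal values. With the slide as a block, 0 members were called, and 1 gene of 19032 was. The largest member difference was that of Bak1, with -0.35 ± 0.28. The difference of Pmaip1 was -0.07 ± 0.28 and that of Mcl1 was -0.13 ± 0.41.

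**Figure D3:**
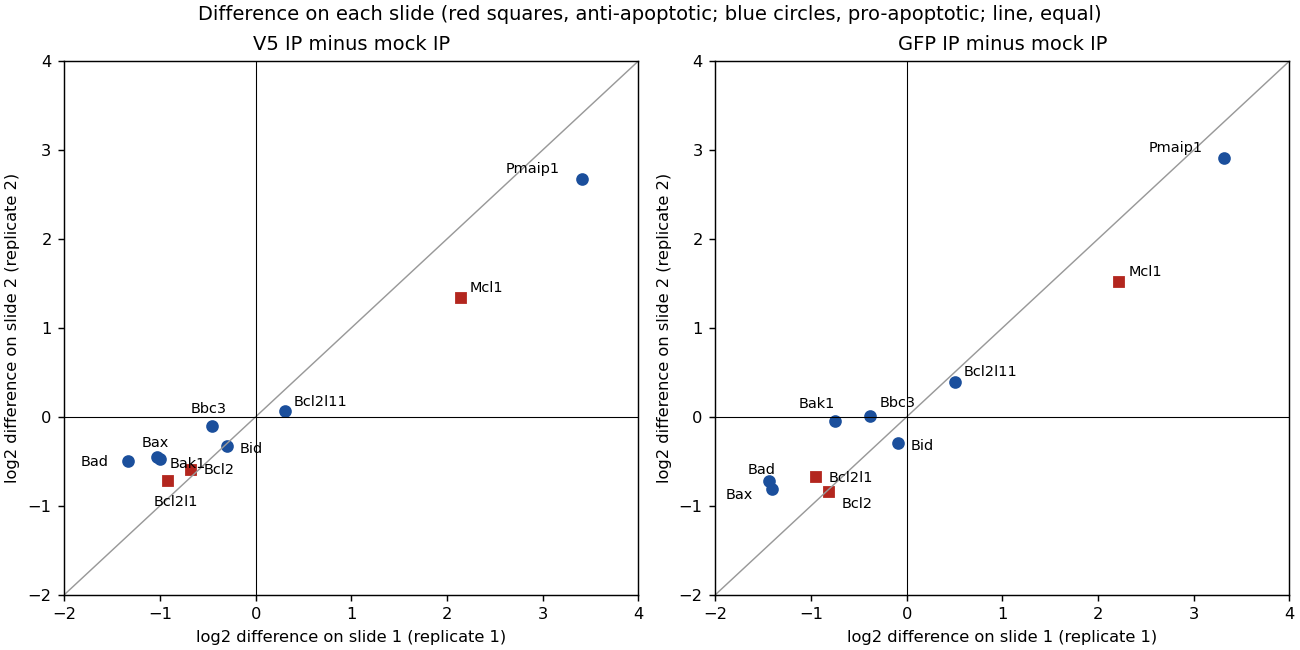
Log2 difference from mock IP within slide 1 (horizontal axis, replicate 1 arrays) and within slide 2 (vertical axis, replicate 2 arrays) for the brightest probe of each gene, V5 IP on the left and GFP IP on the right; red squares are anti-apoptotic genes, blue circles pro-apoptotic genes, and the grey line marks equal values. Pmaip1 and Mcl1 lie far up on both slides (3.41 and 2.68 for Pmaip1 with anti-V5), and Bad, Bax and Bak1 were further below mock IP on slide 1 than on slide 2.

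Set by role, both the death promoters and the guardians had members above and below mock IP. In V5 IP against mock IP the 3 anti-apoptotic genes ran from -0.82 to 1.74 and the 7 pro-apoptotic genes from -0.92 to 3.04, so each class held both a rise and values below 0. In GFP IP the ranges were -0.83 to 1.87 and -1.11 to 3.12. The anti-apoptotic median minus the pro-apoptotic median was -0.33 with anti-V5 and -0.62 with anti-GFP against mock IP, and 0.50 and 0.17 against input. Within slides, the difference against mock IP was -0.22 and -0.27 with anti-V5 and -0.43 and -0.63 with anti-GFP. Within slide 2 the difference of GFP IP against input was -0.03, where slide 1 gave 0.36. The difference with anti-V5 against mock IP was 0.05 without mock IP replicate 2, 0.10 after normexp with quantile normalization and 0.02 when all probes of a gene were averaged. Averaging all probes gave 0.02 with anti-GFP. No order of the classes is drawn from these values. Within each class 1 gene stood far above the others: Pmaip1 exceeded the next pro-apoptotic gene, Bcl2l11, and Mcl1 exceeded Bcl2 and Bcl2l1, on both slides and with both antibodies.

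**Figure D4:**
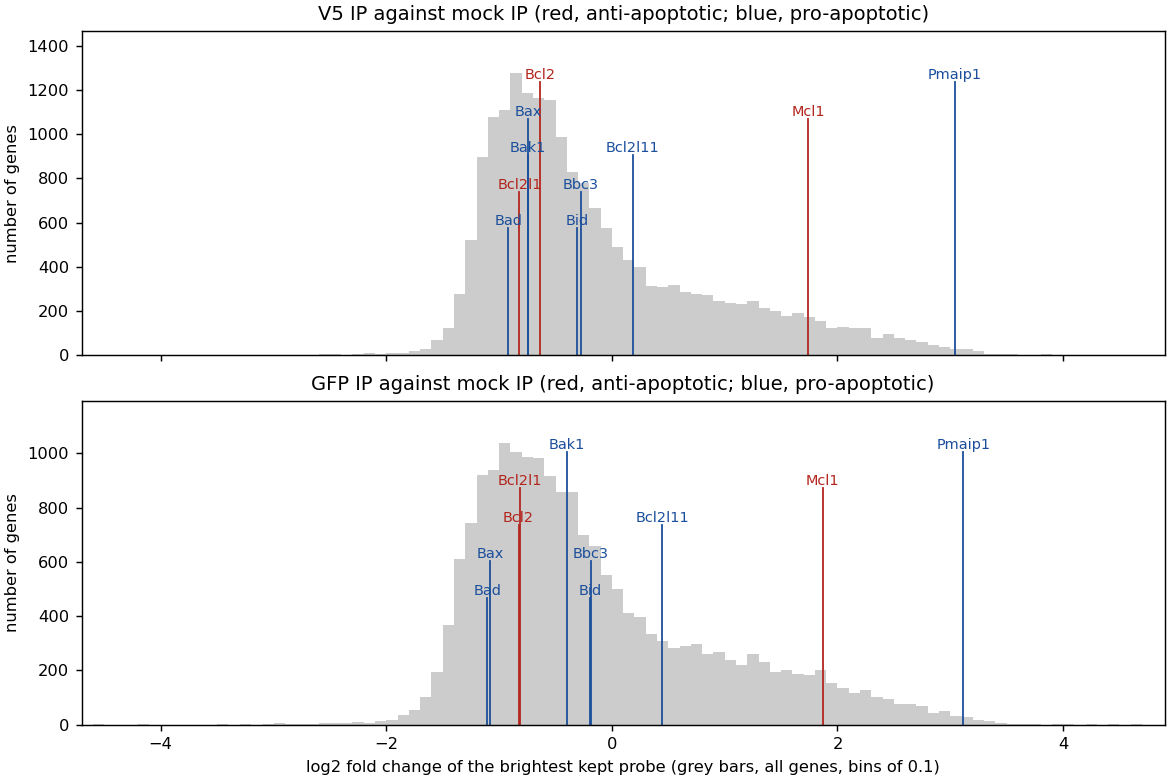
Number of genes (vertical axis) by log2 fold change of the brightest usable probe (horizontal axis, grey bars 0.1 wide) with anti-V5 against mock IP (top) and GFP IP against mock IP (bottom), with the 10 members marked by lines whose height only spaces the names; red is anti-apoptotic and blue pro-apoptotic. Pmaip1 (3.04 and 3.12) and Mcl1 (1.74 and 1.87) lie in the upper tail, and the other 8 lie between -1.11 and 0.45, in the main body of genes.

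Other genes of the pathway were examined through 3 lists. These were chosen with earlier results of these data known, so their counts are description only. The first held 18 further BCL2 family genes, of which 15 were on the array and 13 had a usable probe. In V5 IP against mock IP 1 of the 13 was called higher and 3 lower, with a median of -0.26, and with anti-GFP 1 higher and 3 lower, with a median of -0.30. Of all genes, 14.1% were called higher and 19.4% lower with anti-V5, and 15.9% and 25.2% with anti-GFP, with a median of -0.44 in both. Bnip3l, a mitophagy receptor with a BH3-like stretch, rose 2.30-fold with anti-V5 (limma adjusted p = 0.0201) and 2.52-fold with anti-GFP (adjusted p = 0.0116) over mock IP. Against input Bnip3l was not called (log2 0.34, adjusted p = 0.369, and 0.47, adjusted p = 0.207). In mock IP Bnip3l differed from input by -0.86 (adjusted p = 0.0736). Its relative Bnip3 had log2 differences of 0.70 (adjusted p = 0.179) and 0.70 (adjusted p = 0.168). Bok, a BAX-like effector, was lower than mock IP with both antibodies (log2 -1.19, adjusted p = 0.0218, and -1.20, adjusted p = 0.0155), and in mock IP it was higher than in input (log2 1.33, adjusted p = 0.0334). Bnip1, a SNARE of the endoplasmic reticulum, was lower than mock IP (log2 -0.98, adjusted p = 0.0261, and -1.11, adjusted p = 0.0146) and lower than input (log2 -0.97, adjusted p = 0.0254, and -1.09, adjusted p = 0.0143).

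The second list held 30 regulators and partners of BCL2 family proteins, all with a usable probe. Like the other lists, it was chosen with earlier results known, so no enrichment is drawn from its counts. In V5 IP against mock IP 12 of 30 were called higher and 1 lower, with a median of 0.54, and with anti-GFP 13 higher and 3 lower, with a median of 0.74, where the median of all genes was -0.44. Of all genes, 14.1% were higher and 19.4% lower with anti-V5, and 15.9% and 25.2% with anti-GFP. In mock IP against input the median of the list was -0.29 and that of all genes 0.20. Against input 8 were higher and 1 lower with anti-V5, and 7 higher and 2 lower with anti-GFP, where 13.9% of all genes were higher and 13.2% lower with anti-V5 and 15.7% and 16.3% with anti-GFP. Ywhaz, a 14-3-3 protein of the family that holds BAD, rose 5.90-fold with anti-V5 (limma adjusted p = 0.00253) and 7.13-fold with anti-GFP (adjusted p = 0.00223) over mock IP. Mdm4, an inhibitor of p53, rose 4.31-fold (adjusted p = 0.00381) and 4.82-fold (adjusted p = 0.00273). The kinase gene Akt1, whose product phosphorylates BAD, was lower than mock IP (log2 -0.96, adjusted p = 0.0364, and -0.99, adjusted p = 0.0273) but higher in mock IP than in input (log2 1.52, adjusted p = 0.0282). Ddit3, a stress-induced transcription factor, differed from mock IP by -0.96 (adjusted p = 0.0552) with anti-V5 and fell by 1.01 on the log2 scale with anti-GFP (adjusted p = 0.0412).

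The third list held 5 genes for proteins that mitochondria release. In V5 IP against mock IP 1 was called higher and 1 lower, with a median of -0.76, and with anti-GFP 1 higher and 4 lower, with a median of -0.90. Over all genes the shares were 14.1% higher and 19.4% lower with anti-V5 and 15.9% and 25.2% with anti-GFP, and the median was -0.44 in both. Diablo, whose product blocks inhibitors of caspases, rose 3.56-fold with anti-V5 (limma adjusted p = 0.0318) and 3.77-fold with anti-GFP (adjusted p = 0.0226). The protease gene Htra2 was lower than mock IP (log2 -1.23, adjusted p = 0.0233, and -1.43, adjusted p = 0.0123). Aifm1, for a flavoprotein that moves to the nucleus, was among the 4 genes called lower than mock IP with anti-GFP, and was not called with anti-V5. It was lower than input with both antibodies (log2 -1.54, adjusted p = 0.00863, and -1.68, adjusted p = 0.00562). The nuclease gene Endog was called lower than mock IP with anti-GFP (log2 -0.92, adjusted p = 0.0477), and with anti-V5 it differed by -0.80 (adjusted p = 0.0787). Against input, 1 gene of the list was called higher and 2 lower with each antibody, beside 13.9% higher and 13.2% lower of all genes with anti-V5 and 15.7% and 16.3% with anti-GFP.

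The pattern of Pmaip1 across the 8 arrays was shared by many genes. The 3 genes outside the family with the highest Pearson correlation were Skil (0.9988), Ccser2 (0.9988) and Fbxo45 (0.9985), and 1335 genes had a correlation over 0.95. These values describe arrays that fall into 2 sets, the tag antibodies and the controls. Sums of marker genes also moved between the same arrays. Each is the log2 of the summed signals before logs, so the brightest genes of a set dominate it. For the 5 neural markers this was 1.49 and 2.09 in input and 2.60 and 2.46 in mock IP. It was 4.31 and 3.12 with anti-V5 and 4.20 and 3.26 with anti-GFP. Among these markers Tubb3 read 1.26 and 1.25 in the input arrays, and Pax6 read -1.89 and 0.79. The 8 fibroblast or feeder markers ran from 3.56 to 3.79 in input, from 3.56 to 4.66 in mock IP, from 2.70 to 2.98 with anti-V5 and from 2.65 to 2.83 with anti-GFP. The 7 pluripotency markers ran from 6.34 to 6.64 in the controls and from 7.43 to 8.11 with the tag antibodies. The germ cell sum lay between 8.32 and 9.48 on all arrays. In input it was 8.96 and 8.91, where Dppa5a alone read 8.75 and 8.70. The germ cell sum therefore says little of the other germ cell markers, among them Dazl, which rose over mock IP. The part of these markers in the differences of the members was not tested.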

How the data were processed

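Scanner output came from Agilent Feature Extraction 9.1.3.1, per the file headers, and the deposited processed intensity of a spot is background-subtracted. A series-wide table of the authors' normalized signals, with a deposited quality score, was matched spot by spot (45018 entries, tolerance 1e-05) and served as an alternative, as log2 of the deposited signal plus 0.1.

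The log2 processed intensity was taken relative to each array's 75th percentile, averaging spots of a probe without outlier flags. A probe was used if it was well above background on the 2 arrays of any group (28103 of 41174 probes). No used probe of a member was saturated. Gene names came from the files and the RefSeq gene table: 22951 probes were named by accession, 6659 by current symbol, 3096 by synonym, and 8468 kept the file's name. All 8 arrays entered 1 fit in limma 3.58.1 (R 4.3.3, two-sided, 4 group means), with Benjamini-Hochberg adjustment over all used probes. The script was tested on simulated data. The number of arrays limits the precision.

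Slide 1 held the replicate 1 arrays and slide 2 the replicate 2 arrays, each group at the same position. Deviations from group means correlated between same-numbered arrays by 0.316 to 0.779 over the 6 pairs of groups. The replicate number goes with the slide and with anything else that same-numbered arrays share, and these cannot be told apart. The 18 alternatives were other normalizations, centring and filters, the replicate block, other uses of probes, only the groups compared, and each array left out. All members and Dazl are named. Each pathway list gives the 2 genes of largest and the 2 of smallest moderated t (summed over both tag antibodies against mock IP), and the 3 genes most like Pmaip1 are named too. The members and lists were chosen with earlier results of these data known.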

Additional observations from a re-analysis of the deposited data

How the results depend on the processing

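Of 900 gene results (10 genes, 5 comparisons, 18 alternatives), 767 kept their direction and their side of the threshold, 85 lost the call, 34 gained it and 14 changed sign. Pmaip1 kept its call under all 18 in all 4 comparisons of a tag antibody with a control. The cause of the other changes was not tested, except that fits without an array or with only the groups compared hold fewer arrays. The median of all genes in V5 IP against mock IP, -0.44 here, was -0.34 after quantile normalization, -0.14 after normexp with quantile normalization and -0.23 in the authors' deposited table.

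Members called lower in V5 IP against mock IP numbered 2 after quantile normalization, normexp with quantile normalization, the filter on all arrays or the mean of all probes. Over all genes these settings called 3605, 4381, 4506 (of 16416) and 3797 lower. Members called lower numbered 0 in the authors' deposited table, with no filter or with only the groups compared. Of 19032 genes, these 3 settings called 1388, 759 and 98 lower, where the fit used here called 3701. In GFP IP against mock IP the last 3 settings also gave 0 members. Of all genes they called 2615, 2698 and 1487 lower there, where the fit used here called 4791. Members called higher in V5 IP numbered 1 against mock IP and 1 against input with the mean of all probes. This ended the calls of Mcl1 in both and of Bcl2l11 against input. Of all genes, 2485 and 2146 were called higher in these 2 comparisons, where the fit used here called 2675 and 2641. Members called lower against input numbered 2 in V5 IP after quantile normalization (3007 of all genes). After normexp with quantile normalization they numbered 2 in V5 IP (3512 of all genes) and 2 in GFP IP (3912). In GFP IP 1 was lower after quantile normalization (3496 of all genes) or with only the groups compared (3921). In mock IP against input, 4 were higher after normexp with quantile normalization, where 2011 of all genes were. There was 1 in the authors' table (1076 of all genes) or with the mean of all probes (1258). With no filter or only the groups compared 0 members were higher, and of all genes 56 and 0 were.

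With the replicate block, members called lower numbered 5 in V5 IP against mock IP, 1 in V5 IP against input and 1 in GFP IP against input, and 4 were higher in mock IP against input. Of all genes, 36.9%, 23.6%, 26.2% and 20.4% were called in these comparisons and directions with the block. The block ended no call of a member.

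The anti-apoptotic median minus the pro-apoptotic median in V5 IP against mock IP was -0.12 after quantile normalization, 0.099 after normexp with quantile normalization and 0.022 with the mean of all probes. In GFP IP against mock IP it was -0.35, -0.063 and 0.017 under the same settings, and in mock IP against input 0.18 after normexp with quantile normalization and -0.37 with the mean of all probes. With arrays left out in turn it ran from -0.33 to 0.0501 in V5 IP and from -0.62 to -0.31 in GFP IP against mock IP, and from 0.082 to 0.36 between V5 IP and GFP IP.

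With an array left out, its group holds 1 array, and the number of calls over all genes changed as well as that of the members. Counts of called members in those fits are therefore not given. Over mock IP, the log2 difference of Pmaip1 ran from 2.78 to 3.31 with anti-V5 and from 3.01 to 3.22 with anti-GFP. That of Bcl2l1 ran from -0.94 to -0.70 with anti-V5 and from -0.97 to -0.66 with anti-GFP.

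Differences that changed sign, none of them called, were Bak1 in V5 IP against input (0.059 in the authors' deposited table, 0.0031 with median centring, -0.27 to 0.14 with arrays left out, highest without V5 IP replicate 1) and Bad in V5 IP against input (-0.69 to 0.068 with arrays left out, highest without V5 IP replicate 1). With the mean of all probes, Bcl2l11 against mock IP was -0.30 with anti-V5 and -0.28 with anti-GFP, and Bcl2 against input was -0.14 with anti-V5 and -0.12 with anti-GFP. With arrays left out, Bbc3 in V5 IP against mock IP ran from -0.80 to 0.25 (without mock IP replicate 1), with 0.071 without V5 IP replicate 2. Bbc3 in GFP IP against mock IP ran from -0.71 to 0.34 (without mock IP replicate 1), with 0.15 without GFP IP replicate 2. In mock IP against input, Mcl1 ran from -0.33 to 0.0301 (without input replicate 1) and Bax from -0.095 (without mock IP replicate 1) to 0.65.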
